A study of Rattus norvegicus with 48 samples.

Results

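The livers of rats given the high dose of thioacetamide (TAA) for 28 days were compared with the livers of their time-matched controls. The comparison used 6 of the 48 miRNA-seq libraries of the series, namely high 28-d replicates 19, 20 and 21 and control 28-d replicates 16, 17 and 18, each from the liver of 1 male Sprague-Dawley rat and chosen by the dose and time in the sample titles. The treated rats received TAA at 45 mg/kg, the highest dose of the study, and the controls received the vehicle alone (0 mg/kg). Dosing was once daily for 28 days, and the livers were taken on the day after the last dose. No transgene or mutant allele is given for either group, and the sources used here do not give the age of the rats. The other groups, used only where named, received 4.5 mg/kg (low dose), 15 mg/kg (middle dose), 45 mg/kg or vehicle for 3, 7, 14 or 28 days, with 3 rats in each.

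TAA is a liver toxicant that is activated by oxidation in hepatocytes, and repeated dosing is used as a model of hepatocyte injury, fibrosis and liver tumors in rats. A miRNA is a short RNA that guides the silencing machinery to messenger RNAs, and its seed, the stretch of bases 2 to 8, largely decides which messages are recognized, so that miRNAs with the same seed share many targets. Several groups measured here are known in the liver: miR-122 marks hepatocytes, miR-34a is transcribed in response to p53 and DNA damage, the miR-29 family represses collagen genes, and the miRNAs of the imprinted Dlk1-Dio3 region are abundant in the fetus and largely silent in adult liver.

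The sequences of 4 sets of miRNAs that share a seed and of members of the Dlk1-Dio3 cluster are shown because these sets hold at least 2 DEMs each, as described further on. The mature sequences are those of RefSeq for the rat assembly GRCr8, with the seed in capitals. The first set carries the miR-34 seed.
miR-34a-5p: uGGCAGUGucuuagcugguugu
miR-34c-5p: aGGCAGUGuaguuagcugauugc
miR-449a-5p: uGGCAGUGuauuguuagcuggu

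The miR-15/16 seed and the seed of miR-103 and miR-107 overlap when they are shifted by a single base.
miR-15b-5p: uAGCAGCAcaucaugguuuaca
miR-16-5p: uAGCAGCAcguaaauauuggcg
miR-195-5p: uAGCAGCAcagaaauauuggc
miR-103-3p: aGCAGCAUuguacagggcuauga
miR-107-3p: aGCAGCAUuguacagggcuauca

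The miR-29 seed was shared by miRNAs that were lower in the treated rats.
miR-29a-3p: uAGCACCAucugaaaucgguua
miR-29c-3p: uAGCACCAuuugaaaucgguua

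The Dlk1-Dio3 miRNAs lie next to one another in the genome and, unlike these sets, have different seeds. miR-136-5p is a further member.
miR-127-3p: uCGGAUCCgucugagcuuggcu
miR-136-3p: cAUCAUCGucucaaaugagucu
miR-411-5p: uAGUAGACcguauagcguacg
miR-434-3p: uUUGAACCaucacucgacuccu
miR-541-5p: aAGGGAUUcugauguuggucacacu

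The authors deposited raw read counts for each mature miRNA and precursor. Library totals were between 7665439 counts (control replicate 18) and 14373693 counts in the 6 libraries, and between 293331 and 14906217 counts in all 48. The lowest total was that of control 3-d replicate 1, which stood apart from the rest, and the next lowest was 4829217. The detection limit was set at 3 counts, which corresponded to between 0.209 and 0.391 RPM (reads per M counts) in the 6 libraries, a limit that covers counting error only. Pearson's r was taken on log2 upper quartile normalized RPM, with 1 added, across the 301 miRNAs tested below. It was between 0.992 and 0.993 among the controls and between 0.993 and 0.994 among the treated rats, and no 2 replicates agreed within sampling noise. The labelled tissue was checked against its markers. The hepatocyte miRNAs miR-192-5p and miR-122-5p held 21.2% and 3.58% of the counts at high dose and 19.9% and 3.09% in the controls. Brain miR-124-3p and muscle miR-1-3p, miR-206-3p and miR-208a-3p had between 0 and 2 counts in each of the 6 libraries. Other markers of these tissues were present, with between 38 and 63 counts for brain miR-9a-5p and between 47 and 141 for muscle miR-133a-3p.

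A total of 301 mature miRNAs reached 5 RPM in at least 3 of the 48 libraries and were tested with edgeR's quasi-likelihood F-test on the 6 libraries, after upper quartile normalization. Levels are given as upper quartile normalized RPM. A differentially expressed miRNA (DEM) was defined by a fold change above 1.5 at an unadjusted p-value below 0.05. After the high dose for 28 days 46 of the 301 miRNAs were DEMs (15.3%), with 39 (13%) above and 7 (2.33%) below the controls. The share of higher DEMs was smaller with DESeq2's size factors, with its Wald test and under other filters, as given in the closing section. With Benjamini-Hochberg adjustment 10 DEMs remained (3.32%), 6 of them higher and 4 lower. Values of the 3 treated and the 3 control rats did not overlap for 42 of the 46 DEMs, against 102 of all 301 tested miRNAs (33.9%). The median log2 fold change of all tested miRNAs was 0.06, and the unadjusted p-value was below 0.05 for 87 miRNAs.

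**Figure D1:**
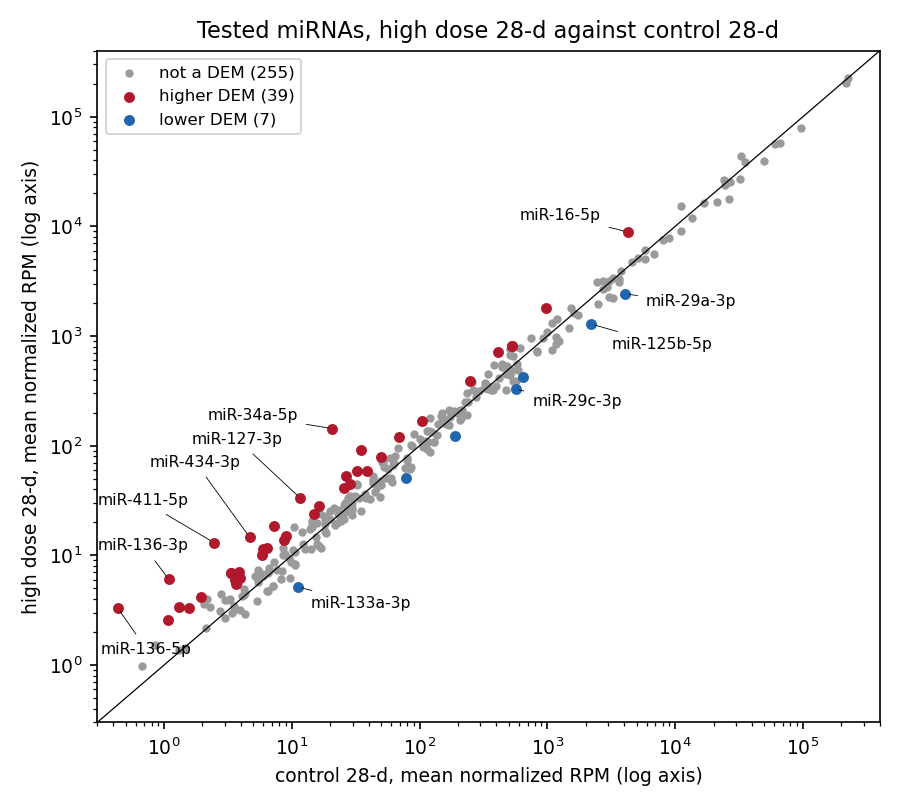
Mean normalized RPM of the 301 tested miRNAs in the 3 control 28-d libraries (x axis, log scale) and the 3 high dose 28-d libraries (y axis, log scale), with the line of equal levels. The 39 higher DEMs lie above the line and the 7 lower DEMs below it, and the most abundant miRNAs, such as miR-192-5p, lie close to it.

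The number of DEMs depended on which controls were used. When the controls of all 4 time points were pooled 11 DEMs were called, 9 of them among the 46, and without control 3-d replicate 1 in that pool 12 were called, 10 of them among the 46. The mean level at high dose lay inside the range of 8 control libraries of 3-d, 7-d and 14-d for 33 of the 46 DEMs (71.7%) and for 238 of all 301 tested miRNAs (79.1%), a comparison that leaves out the shallow 3-d library. The mean of the 28-d controls lay inside the same range for 21 of the 46 DEMs (45.7%) and for 193 of the 301 (64.1%). For 19 of the 46 DEMs the treated mean was inside that range and the 28-d control mean outside it. The same held for 81 of all 301, a smaller share. The labels give no date or batch, so age, time and library set cannot be told apart for the controls.

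miR-34a-5p, the miRNA best known as a direct p53 target, had the smallest p-value. Its level was 24.9, 14.9 and 22.6 normalized RPM in the controls and 170.0, 74.8 and 186 in the treated rats. Replicate 20 was the lowest of the treated rats and still lay above every control. The mean rose 6.90-fold (log2 fold change 2.79 ± 0.34 SE, n = 3 per group; adjusted p = 0.00168 by edgeR with Benjamini-Hochberg adjustment). The treated mean, 144 ± 60.0 (SD, n = 3), also lay above the highest of the 8 other control libraries, at 51.7. With the 11 deeper controls pooled the log2 fold change was 2.09 and miR-34a-5p was again a DEM. The mature sequence lies at chr5:165815971-165815992 on the plus strand of GRCr8.

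The other tested miRNAs with the miR-34 seed in RefSeq, miR-34c-5p and miR-449a-5p, were higher DEMs. miR-34c-5p, encoded in another cluster, was at 41.3, 22.1 and 16.2 in the controls and at 48.9, 42.7 and 67.4 at high dose (log2 fold change 0.99 ± 0.32). miR-449a-5p, a miRNA of multiciliated epithelium, was at 1.56, 1.79 and 1.34 in the controls and at 2.74, 3.89 and 3.25 at high dose (1.05 ± 0.30). The treated and control values of both did not overlap, but neither passed the adjustment (adjusted p = 0.0909 and 0.0774 by edgeR with Benjamini-Hochberg adjustment). The opposite arm, miR-34a-3p, was below the level needed for testing and had 0, 4 and 4 counts in the controls and 14, 1 and 10 at high dose, so its groups overlapped.

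**Figure D2:**
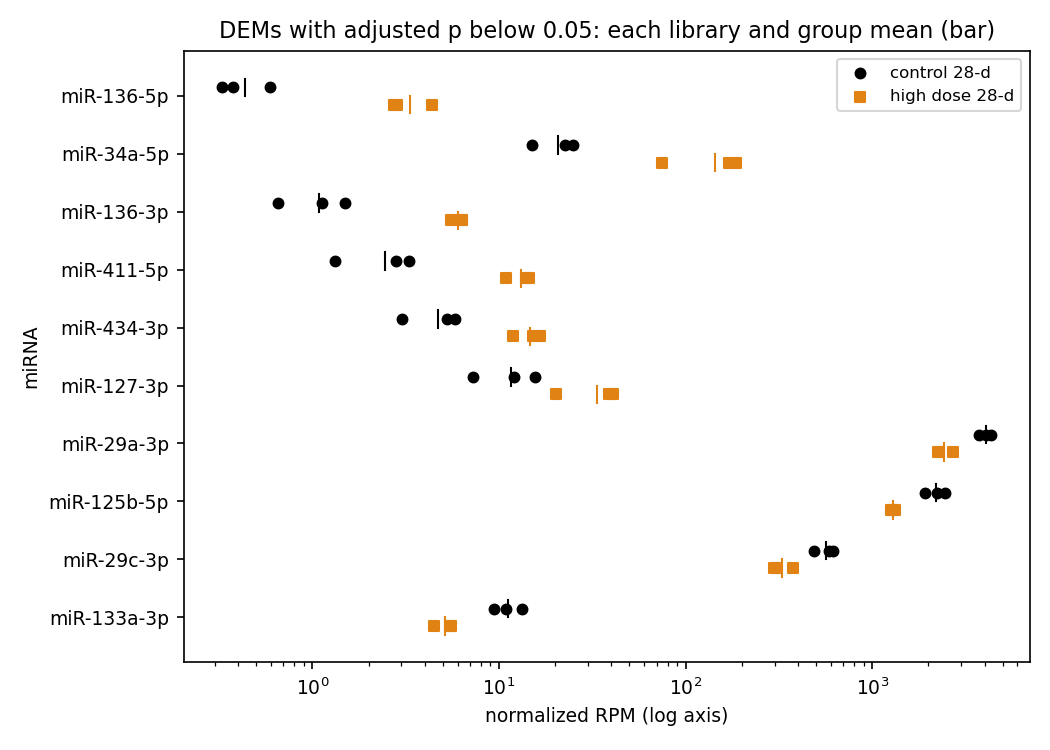
Normalized RPM (x axis, log scale) of the 10 DEMs with an adjusted p-value below 0.05 in each control 28-d library (circles) and each high dose 28-d library (squares), with group means as bars. The groups do not overlap for any of the 10, and among the treated rats replicate 20 is the lowest for miR-34a-5p, at 74.8.

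The Dlk1-Dio3 cluster held 5 of the 6 higher DEMs that passed the adjustment. Of its 81 members with reads, 78 were found in RefSeq and all 78 lie on chromosome 6 between 134298129 and 134579828. Only 6 were abundant enough for testing, and all 6 were higher DEMs, 5 of them after adjustment, with a median log2 fold change of 2.04 against 0.06 for all tested miRNAs. These 6 could pass the abundance rule through any of the 48 libraries, and in the 28-d controls their counts ranged from 4 for miR-136-5p in each library to between 49 and 190 for miR-127-3p.

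miR-136-3p was at 0.656, 1.13 and 1.49 normalized RPM in the controls and at 6.32, 5.51 and 6.32 at high dose (log2 fold change 2.53 ± 0.32, adjusted p = 0.00168 by edgeR with Benjamini-Hochberg adjustment). miR-136-5p, from the other arm of the same hairpin, was at 0.328, 0.376 and 0.596 in the controls, which was 4 counts in each library, and at 2.74, 2.85 and 4.39 at high dose (2.98 ± 0.43, adjusted p = 0.00304). Both arms thus rose together from very few reads. miR-411-5p was at 2.79, 1.32 and 3.28 in the controls and at 10.9, 14.0 and 14.4 at high dose (2.43 ± 0.31, adjusted p = 0.00168). miR-434-3p, a rodent miRNA antisense to the retrotransposon-derived gene Rtl1, was at 5.25, 3.01 and 5.81 in the controls and at 11.95, 15.2 and 16.7 at high dose (1.65 ± 0.27, adjusted p = 0.00753). In each of these members the lowest treated rat lay well above the highest control.

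miR-127-3p, which is also antisense to Rtl1, was the most abundant of the tested members, at 15.6, 12.03 and 7.30 in the controls and at 20.2, 38.9 and 40.9 at high dose (log2 fold change 1.498 ± 0.32, adjusted p = 0.0299 by edgeR with Benjamini-Hochberg adjustment). Replicate 19 was the lowest treated rat. miR-541-5p was at 1.64, 1.41 and 0.893 in the controls and at 1.90, 4.75 and 3.43 at high dose (1.29 ± 0.41, adjusted p = 0.0902), and replicate 19 came close to the controls there too.

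The 75 members that were too rare to be tested pointed the same way in the sum of their counts, which was between 30 and 63 in the control libraries and between 109 and 152 in the treated libraries. Over all 81 members the sum was 26.1 ± 4.81 normalized RPM in the 28-d controls and 85.5 ± 20.2 at high dose (SD, n = 3 each). The level in the controls differed between time points. The sum was between 68.7 and 228 in the 3-d controls, between 77.9 and 95.5 in the 7-d controls and between 22.1 and 30.4 in the 14-d controls. The high dose 28-d libraries, at 62.3, 95.6 and 98.5, were all above the 14-d and 28-d controls, while the lowest of them was below every 3-d and 7-d control and the other 2 lay within the range of the 3-d controls. With the 11 deeper controls of all time points pooled, 1 of the 6 members, miR-136-5p, was a DEM (log2 fold change 1.37). In RNA from whole liver, a change in the share of a cell type and a change in the amount of miRNA per cell cannot be told apart.

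**Figure D3:**
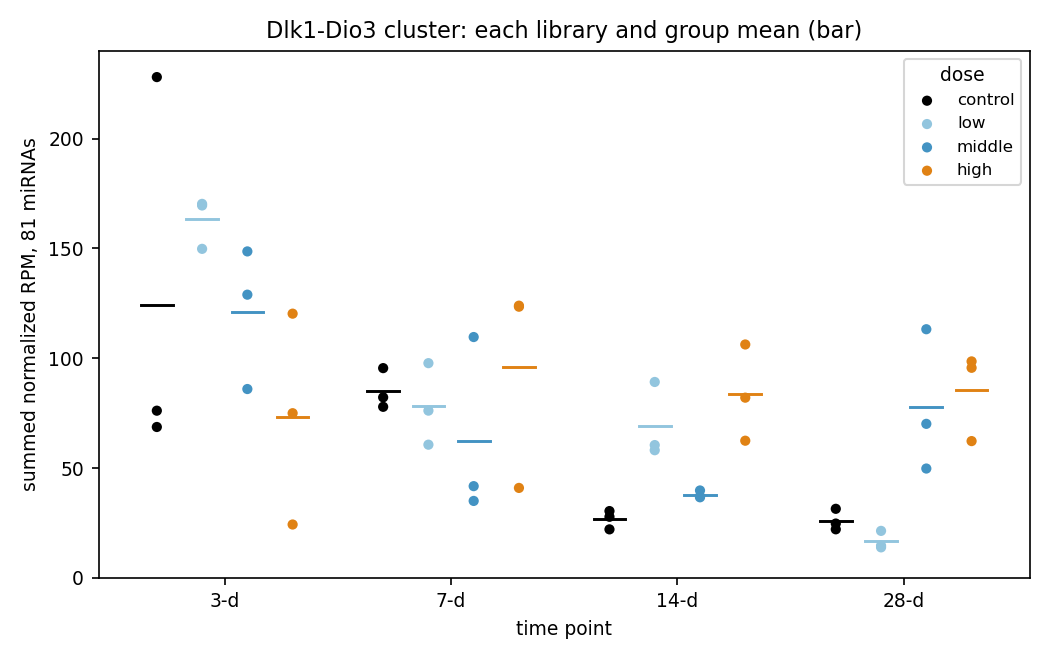
Summed normalized RPM of the 81 Dlk1-Dio3 miRNAs with reads (y axis) in each of the 48 libraries, by time point (x axis) and dose (color), with group means as bars. At 28-d the treated livers of the high dose group lie between 62.3 and 98.5 and the controls between 22.1 and 31.4, whereas the 3-d controls lie between 68.7 and 228 and the 7-d controls between 77.9 and 95.5.

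In the miR-29 family, whose members target collagens and other matrix messages, 2 of the 5 tested members, both arms counted, were lower DEMs and 0 were higher, against 2.33% lower DEMs among all tested miRNAs. miR-29a-3p was at 3721, 4346 and 4094 normalized RPM in the controls and at 2255, 2724 and 2287 at high dose (log2 fold change -0.74 ± 0.14, adjusted p = 0.0179 by edgeR with Benjamini-Hochberg adjustment). miR-29c-3p was at 488, 585 and 619 in the controls and at 297, 377 and 308 at high dose (-0.79 ± 0.17, adjusted p = 0.0299). The treated rats were below every control for both. miR-29b-3p, which has the same seed, was at 42.8, 49.5 and 55.5 against 30.6, 35.9 and 35.9, with a log2 difference of -0.53 ± 0.17 that did not reach the fold threshold. The passenger arms miR-29a-5p (-0.41) and miR-29c-5p (-0.30) were not DEMs, and the median of the 5 was -0.53, against 0.06 for all tested miRNAs.

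The 28-d controls were also the highest controls for miR-29a-3p. Its mean was 2519 ± 75.2 in the 7-d controls, 3244 ± 119 in the 14-d controls and 4054 ± 315 in the 28-d controls (SD, n = 3 each), against 2422 ± 262 at high dose for 28 days. The treated mean was therefore close to that of the 7-d controls. It was not a DEM against the pooled controls, with or without the shallow library.

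Further lower DEMs passed the adjustment. miR-125b-5p, a relative of the lin-4 miRNA, was at 2221, 1909 and 2441 in the controls and at 1266, 1328 and 1283 in the treated rats (log2 fold change -0.76 ± 0.15, adjusted p = 0.0179 by edgeR with Benjamini-Hochberg adjustment). It was the single DEM among the 9 tested members of the miR-99/100 and miR-125 families, against 15.3% of all tested miRNAs. miR-133a-3p, known from skeletal and heart muscle, was at 9.44, 13.3 and 10.9 in the controls and at 5.48, 4.46 and 5.53 at high dose (-1.11 ± 0.22, adjusted p = 0.0201). Its counts were between 47 and 141 in libraries in which the muscle marker miR-1-3p had at most 1 count. For miR-125b-5p the 8 other control libraries were between 1247 and 1831. That range includes the treated mean (1292) and lies below the mean of the 28-d controls (2190). For miR-133a-3p both means, 5.16 and 11.2, lay inside the range of those libraries, 2.54 to 11.6. With the 11 deeper controls pooled the log2 fold changes were -0.39 and -0.50, and neither miRNA was a DEM.

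Among the higher DEMs outside any list, miR-6324 was at 4.43, 7.15 and 6.25 in the controls and at 11.04, 11.2 and 12.1 at high dose (log2 fold change 0.95 ± 0.23), and miR-148b-5p was at 29.2, 24.3 and 32.01 against 47.3, 41.03 and 46.5 (0.66 ± 0.17). Their groups did not overlap, and neither passed the adjustment (adjusted p = 0.0522 and 0.0714 by edgeR with Benjamini-Hochberg adjustment).

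The other lower DEMs did not pass the adjustment. miR-150-5p, a miRNA of mature lymphocytes, was at 504, 776 and 662 in the controls and at 412, 423 and 438 at high dose (log2 fold change -0.61 ± 0.18). miR-128-3p, which is enriched in brain, was at 142, 217 and 214 in the controls and at 124, 123 and 124 at high dose (-0.62 ± 0.19). miR-328a-3p had a log2 fold change of -0.62 ± 0.22 with overlapping groups. The 3 treated rats were much closer to one another than the controls for miR-150-5p and miR-128-3p.

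The seed shared by miR-15b, miR-16 and miR-195, miRNAs that restrain cyclins and other cell cycle genes, was carried by 3 higher DEMs. miR-16-5p was at 6692, 3983 and 2179 in the controls and at 8035, 8784 and 9864 at high dose (log2 fold change 1.05 ± 0.32, adjusted p = 0.0801 by edgeR with Benjamini-Hochberg adjustment). miR-195-5p was at 510, 413 and 306 in the controls and at 585, 709 and 839 at high dose (0.80 ± 0.22, adjusted p = 0.0774). miR-15b-5p was at 86.5, 67.9 and 54.0 in the controls and at 123, 111 and 128 at high dose (0.79 ± 0.19, adjusted p = 0.0536). Control replicate 18, the library with the lowest total of the 6, was the lowest control for each of the 3, and none of the 3 passed the adjustment. miR-322-5p and miR-497-5p, which have this seed in RefSeq, had log2 differences of 0.39 ± 0.16 and 0.35 ± 0.17 and were not DEMs. Nor was miR-15a-5p, a further tested member of the family, at 515, 509 and 295 in the controls and 477, 500.4 and 605 at high dose (0.26 ± 0.22). For miR-16-5p the 8 other control libraries were between 7447 and 9387, a range that includes the treated mean and lies above all 3 of the 28-d controls.

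miR-103-3p and miR-107-3p, which lie within the pantothenate kinase genes and dampen insulin signaling, were both higher DEMs. miR-103-3p was at 697, 533 and 370 in the controls and at 744, 833 and 849 at high dose (log2 fold change 0.60 ± 0.22). miR-107-3p was at 316, 251 and 174 in the controls and at 362, 392 and 403 at high dose (0.64 ± 0.21). Control replicate 18 was again the lowest. Both calls sat close to the fold threshold, at adjusted p = 0.111 and 0.0975 by edgeR with Benjamini-Hochberg adjustment. miR-103-3p was not a DEM with TMM normalization, and neither was a DEM with DESeq2's size factors, with its Wald test or without a filter. The 8 other control libraries were between 721 and 1030 for miR-103-3p and between 312 and 505 for miR-107-3p. Both ranges include the treated mean (808 and 386) and lie above the 28-d control mean (533 and 247). With the 11 deeper controls pooled the log2 differences were 0.07 and 0.04, and neither was a DEM. Among 214 seeds of the 270 tested miRNAs found in RefSeq, 31 were shared by at least 2 tested miRNAs, and 4 of these, the ones shown above, held at least 2 DEMs.

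**Figure D4:**
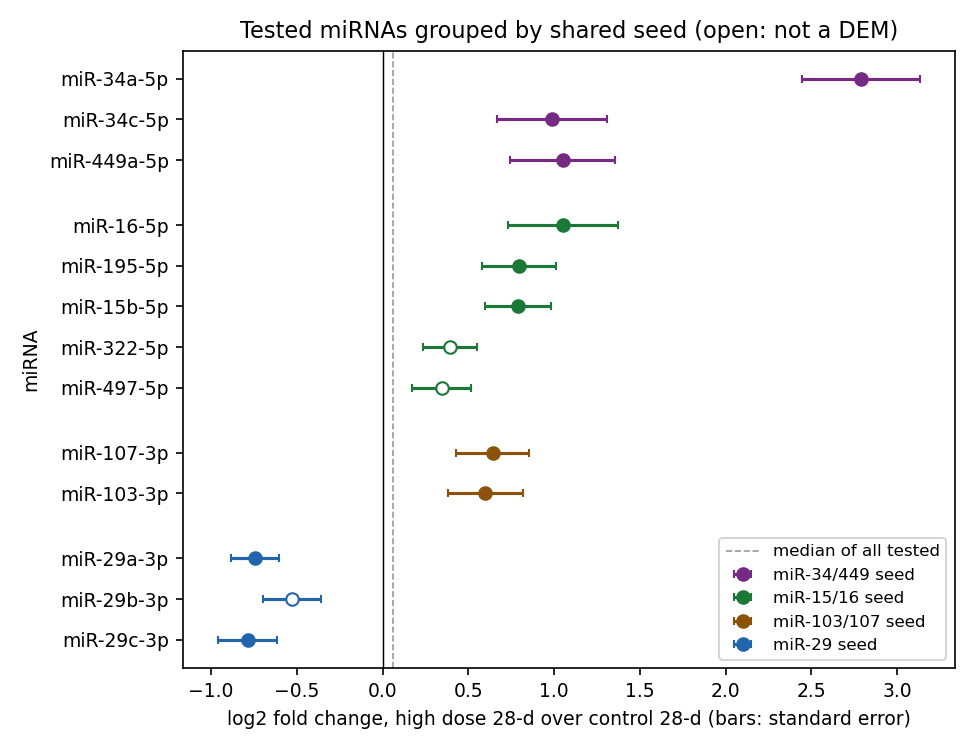
Log2 fold change, high dose 28-d over control 28-d (x axis; bars are standard errors), of the tested miRNAs with a seed, as found in RefSeq, that is shared by at least 2 DEMs, with open points for those that were not DEMs and a dashed line at the median of all tested miRNAs, 0.06. The plotted members of the miR-34, miR-15/16 and miR-103 sets lie above 0, and those of the miR-29 set lie below it.

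Of the 8 tested hepatocyte miRNAs 0 were DEMs, against 15.3% of all tested miRNAs. miR-122-5p was at 40734, 29014 and 35124 in the controls and at 38304, 37347 and 39439 at high dose, with overlapping groups and a log2 difference of 0.13. The sum of the hepatocyte list was between 331655 and 354265 in the controls and between 328312 and 343079 at high dose. Likewise 0 of the 4 tested red blood cell miRNAs, 0 of the 2 endothelial miRNAs, 0 of the 3 inflammation-induced miRNAs and 0 of the 2 strands of miR-21 were DEMs, with log2 differences of 0.05 for miR-486, -0.04 for miR-126a-5p, -0.34 for miR-146a-5p and -0.34 for miR-21-5p. The direction of the first 2 of these turned under some of the alternatives. Of the other miRNAs among the 10 most abundant, miR-192-5p (0.02), miR-22-3p (-0.08), miR-148a-3p (-0.20), miR-10a-5p (-0.10) and miR-27b-3p (0.13) were not DEMs either.

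DEMs made up 15.3% of all tested miRNAs, the share against which the list counts of this paragraph stand. Among 7 tested miRNAs of stellate cells and smooth muscle, miR-214-3p was the single DEM, at 9.93, 22.3 and 16.97 in the controls and at 21.2, 36.8 and 25.998 at high dose (log2 fold change 0.77 ± 0.30), and its groups overlapped. The summed level of this list was between 27193 and 44360 in the controls and between 42086 and 50502 at high dose, and it was made up mostly of miR-143-3p (log2 difference 0.44). Among 11 tested miRNAs of epithelium and bile duct, miR-31a-5p was the single DEM, at 1297, 975 and 641 in the controls and at 2005, 1675 and 1778 at high dose (0.91 ± 0.23, adjusted p = 0.0714 by edgeR with Benjamini-Hochberg adjustment). The 8 other control libraries were between 1456 and 1854 for miR-31a-5p. That range includes its treated mean (1819) and lies above every 28-d control. With the 11 deeper controls pooled its log2 fold change was 0.25 and it was not a DEM. The epithelial miRNAs miR-200a-3p, miR-200b-3p and miR-429 were not DEMs. Of the 4 tested leukocyte miRNAs, miR-150-5p was a lower DEM and 0 were higher, and the sum of that list was between 4179 and 5108 in the controls and between 3538 and 4651 at high dose. Whether a change in cell composition had a part in these results was not tested.

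Among miRNAs linked to proliferation, 3 of the 16 tested members of the miR-17 to miR-92a clusters and their paralogs were higher DEMs, a share near the 13% of all tested miRNAs, namely miR-92a-1-5p (log2 fold change 0.86 ± 0.25), miR-17-1-3p (0.78 ± 0.23) and miR-18a-5p (0.75 ± 0.23). The first of these was at 37.7, 29.6 and 30.7 in the controls and at 46.8, 46.8 and 84.0 at high dose. The median of the list was 0.32 and 0 members were lower DEMs. In the miR-23/27/24 clusters 2 of 9 were higher DEMs, miR-27a-5p (1.25 ± 0.36) and miR-24-3p (0.62 ± 0.21), and in the list of metabolic miRNAs 2 of 7, miR-103-3p and miR-107-3p. The treated means of miR-92a-1-5p, miR-27a-5p and miR-24-3p lay inside the range of the 8 other control libraries, and their 28-d control means lay below it. With the 11 deeper controls pooled their log2 fold changes were 0.34, 0.23 and 0.28, and none was a DEM. miR-17-1-3p (0.42) and miR-18a-5p (0.44) were not DEMs there either. miR-24-3p was also not a DEM with TMM, with DESeq2's size factors or without a filter. There were 0 DEMs among the 8 tested members of the cluster of miR-322, miR-503, miR-450 and miR-542, the 3 of miR-221 and miR-222, the 19 of let-7 and miR-98, the 11 of miR-30 and the 6 of miR-26 and miR-101, a pair of families regarded as tumor suppressors. The most abundant members of these lists had log2 differences of 0.30 (miR-351-5p), 0.42 (miR-221-3p), -0.58 (let-7f-5p) and -0.24 (miR-30a-5p). miR-26a-5p, the third most abundant miRNA, was at 91257, 98088 and 100457 in the controls and at 73799, 77607 and 84742 at high dose, a log2 difference of -0.30 that was below the fold threshold although the groups did not overlap.

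The rodent miR-466 family, encoded in an intron of Sfmbt2, had 4 higher DEMs among 6 tested members, against 13% of all tested miRNAs. Its median log2 fold change was 0.79. miR-466b-2-3p was at 2.22, 3.20 and 4.62 in the controls and at 5.10, 7.98 and 7.73 at high dose (1.09 ± 0.32). Its counts were identical to those of miR-466b-4-3p, so that the pair stands for a single measurement although each is counted as a member above. miR-466b-5p had a log2 fold change of 0.89 ± 0.28 and miR-466c-5p of 0.65 ± 0.19. Reads of such near-identical copies cannot be assigned to a single precursor.

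With 15.3% of all tested miRNAs called, the lists of other tissues held 1 or 2 DEMs each: miR-219a-1-3p (log2 fold change 0.66 ± 0.22) and the lower miR-128-3p among 5 tested brain miRNAs, miR-7a-5p (0.68 ± 0.19) among 3 pancreas miRNAs, and miR-190b-5p (0.69 ± 0.24) among 7 in the kidney list, while in the muscle list miR-133a-3p was 1 of 2. Of the markers of pancreas, miR-216a-5p and miR-217-5p had at most 2 counts. The further marker miR-375-3p had between 2798 and 6184 counts and a log2 difference of 0.04. miR-582-3p and miR-582-5p, the arms of a single hairpin, were DEMs with overlapping groups. miR-582-3p was at 21.6, 46.6 and 35.7 in the controls and at 136, 27.9 and 113 at high dose (log2 fold change 1.41 ± 0.49), and miR-582-5p was at 5.91, 11.4 and 4.32 in the controls and at 23.4, 6.08 and 26.8 at high dose (1.36 ± 0.51). Replicate 20, which was also the lowest treated rat for miR-34a-5p, stayed within the control range for both arms. Of 81 hairpins with both arms tested 15 had a DEM, and both arms were DEMs for 2, miR-136 and miR-582.

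miR-455-3p, a miRNA that the study followed together with miR-34a-5p, was not a DEM. Its levels were 63.2, 159 and 81.4 in the controls and 118, 103 and 127 at high dose, with overlapping groups and a log2 difference of 0.20.

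The direct comparison with the middle dose at 28 days asked whether the response grew with dose. Of the 301 tested miRNAs 72 (23.9%) passed the fold threshold at an adjusted p-value below 0.05, and 35 of these were higher and 37 lower at high dose. The balance of directions depended on the scaling: with library size alone 16 of 70 were higher (22.9%) and the median of all tested miRNAs moved from 0.03 to -0.18, and with TMM normalization 26 of 66 were higher (39.4%). miR-34a-5p was lower at the high than at the middle dose. Its levels at high dose were between 74.8 and 186, against 423, 646 and 768 at middle dose and 182, 205 and 527 at low dose, so the highest treated dose did not have the highest level. The log2 difference between high and middle dose was -2.09 (adjusted p = 0.00459 by edgeR with Benjamini-Hochberg adjustment), and that between high and low dose was -1.09 (adjusted p = 0.263). miR-434-3p was higher at high than at middle dose (log2 difference 1.86).

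The smallest p-values against the middle dose belonged to the miR-99/100 family and to miR-125b-5p and miR-501-3p, all lower at high dose. The first 2 of them have the same seed.
miR-99b-5p: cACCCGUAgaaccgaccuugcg
miR-100-5p: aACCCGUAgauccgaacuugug

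miR-99b-5p was at 1630 ± 162 at high and 5658 ± 557 at middle dose (SD, n = 3 each; log2 difference -1.80), and miR-100-5p at 248 ± 21.9 and 1117 ± 170 (-2.17). miR-99a-5p (-1.70), miR-125b-5p (-1.46) and miR-501-3p (-2.47) followed. In the titles all 9 middle dose libraries of 7, 14 and 28 days carry running numbers from 31 to 39, and miR-99b-5p was between 4320 and 6275 in all 9. Of the 39 other libraries 2 were at or above 4320, control 3-d replicate 1 and high 7-d replicate 26, and the remaining 37 were between 999 and 3836. The middle dose libraries of 3 days, numbered from 10 to 12, were between 1304 and 2265. Low dose 28-d replicates 28 and 30 were at 3836 and 3555, and replicate 29 was at 999. The middle dose of 7, 14 and 28 days and the set of libraries numbered from 31 to 39 cannot be told apart.

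**Figure D5:**
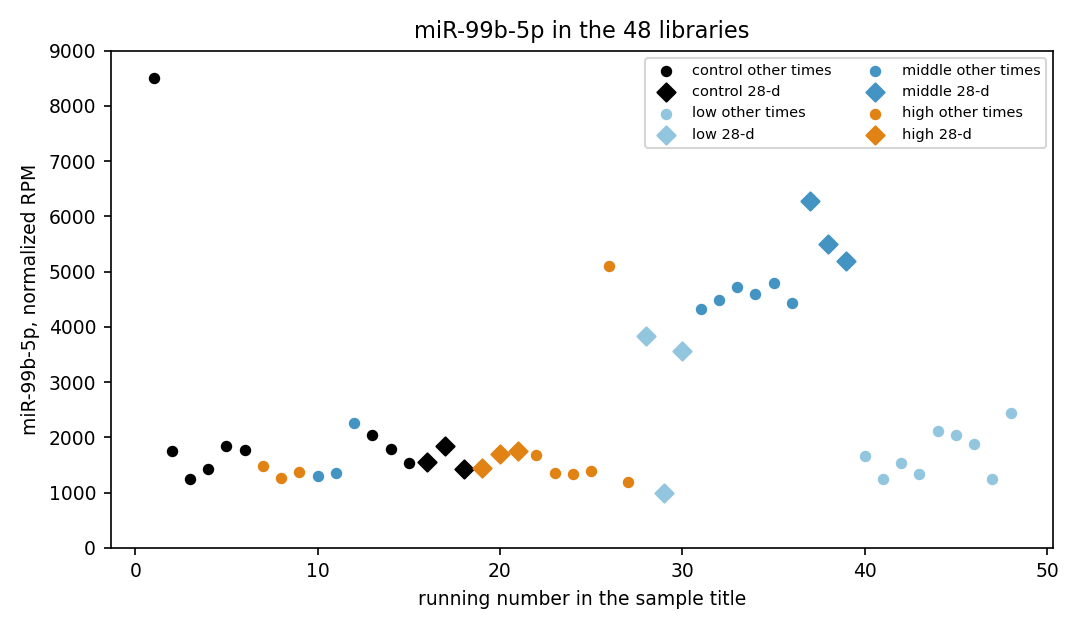
Normalized RPM of miR-99b-5p (y axis) in the 48 libraries by the running number in the sample title (x axis), with color for dose and diamonds for 28-d. The 9 middle dose libraries numbered from 31 to 39 lie between 4320 and 6275, above 37 of the 39 other libraries, and the high dose 28-d libraries lie between 1447 and 1753.

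Against the low dose at 28 days 6 miRNAs were called (1.99%), all higher at high dose, and 5 of the 6 belong to the Dlk1-Dio3 cluster. miR-434-3p was at 14.6 ± 2.42 at high and 0.908 ± 0.359 at low dose (SD, n = 3 each), a log2 difference of 4.004. The 28-d controls were at 4.69 ± 1.48, and every low dose library lay below the lowest of them. The differences were 3.48 for miR-136-5p, 2.75 for miR-136-3p, 2.61 for miR-411-5p and 1.89 for miR-127-3p, and 0.97 for miR-144-3p of red blood cells. The sum of the cluster was between 13.9 and 21.4 at low, between 49.8 and 113 at middle and between 62.3 and 98.5 at high dose. It was between 22.1 and 31.4 in the 28-d controls, so the low dose libraries lay below the controls. The number called rested on single libraries: it was 41 without low dose replicate 29, 2 without low dose replicate 28, high dose replicate 20 or high dose replicate 21, and 3 without low dose replicate 30.

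The high dose effect at 28 days was compared with that at earlier times by the interaction of treatment and time, in which each effect is taken against the controls of its own time. Against 7 days 11 miRNAs (3.65%) were called. The effect was higher at 28 days for 3 Dlk1-Dio3 miRNAs, miR-136-3p (difference of log2 fold changes 2.68), miR-411-5p (2.37) and miR-434-3p (2.10). For miR-434-3p the high dose groups were at 14.6 ± 2.42 at 28 days and 12.96 ± 5.88 at 7 days and the controls at 4.69 ± 1.48 and 17.8 ± 2.56 (SD, n = 3 each), so the time points differed mainly in their controls. The effect was lower at 28 days for 8 miRNAs, with miR-6329 (-2.40), miR-3473 (-1.76), miR-21-3p (-1.74) and miR-466b-5p (-1.59) leading by p-value. The remaining 4 were miR-9a-5p (-1.60), the inflammation-induced miR-155-5p (-1.41), miR-132-3p (-1.37) and miR-29b-3p (-1.24). Leaving out single libraries of the 4 groups gave between 2 and 18 calls.

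Against 14 days 0 miRNAs (0%) were called by edgeR after Benjamini-Hochberg adjustment, the smallest adjusted p-value being 0.124, whereas 44 had an unadjusted p-value below 0.05. Without control 28-d replicate 16, 9 were called. For miR-34a-5p the levels were 73.6 ± 33.2 at high dose and 27.7 ± 4.24 in the controls at 14 days, against 144 ± 60.0 and 20.8 ± 5.20 at 28 days (SD, n = 3 each). The difference of its log2 fold changes, 1.38, did not pass the test (adjusted p = 0.261 by edgeR with Benjamini-Hochberg adjustment). The Dlk1-Dio3 sum was between 62.4 and 106 at high dose and between 22.1 and 30.4 in the controls at 14 days, ranges close to those of 28 days.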

How the data were processed

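Liver small RNA of 48 rats was sequenced, and the 6 libraries of the high dose 28-d and control 28-d groups were used for the main comparison. The authors deposited raw counts for 847 combinations of mature miRNA and precursor, made by trimming adaptors, selecting reads by length and mapping them to miRBase with miRDeep2. The submitters' processing notes name the build rn5 and FastQC. The deposited counts were neither normalized nor filtered. Of the 764 mature miRNAs 664 had a read, and for the 71 with several precursors the row with the most reads was kept, because the same reads are counted in each. Library totals and the values of 3 counts are given in the text, and these detection limits cover counting error only. The standard errors and SDs also include the spread between rats.

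The 301 miRNAs that reached 5 RPM in 3 or more of the 48 libraries were tested with the quasi-likelihood F-test of edgeR 4.0.16 in R 4.3.3 after upper quartile normalization. A DEM was defined by a fold change above 1.5 at an unadjusted p-value below 0.05, and adjusted p-values are those of Benjamini and Hochberg over all 301. The other 4 comparisons used adjusted p-values. The F statistic and the log2 fold change gave the standard error. With 3 rats against 3 the smallest 2-sided exact permutation p is 0.1, so no such test was used. Each library is a separate rat. The miRNAs named were the 15 higher and 15 lower non-overlapping DEMs with the smallest p, DEMs of fixed lists, the most abundant member of lists without a DEM, those the study follows, the 10 most abundant and the 5 with the smallest p among those called in each other comparison. miR-15a-5p, miR-16-5p, the miR-29 members that were not DEMs, miR-322-5p, miR-328a-3p, miR-497-5p, both arms of miR-582, marker miRNAs that were not DEMs, the further miRNAs called at low dose and against 7 days, and untested miRNAs other than miR-34a-3p are named outside this rule, after their values were seen. The members and lists were chosen with earlier results of these data known. Sequences were taken from RefSeq (GRCr8), in which 270 of the 301 names were found. Alternatives were TMM, DESeq2's size factors, library size alone, other filters, DESeq2 1.42.0 with its Wald test, edgeR's exact test, a fit of all 48 libraries, pooled controls, summed precursors and each library left out. The pool without the shallowest library, and the unadjusted threshold for the comparison with 14 days, were chosen after seeing the data. The tests were tested on simulated data. Python 3.11.15, pandas 2.3.3 and matplotlib 3.10.9 were used for tables and figures.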

Additional observations from a re-analysis of the deposited data

Results flagged for a closer look

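The treated groups of 28 days differed between doses, and the high dose effect differed between times, by the edgeR tests with Benjamini-Hochberg adjustment. Between high and middle dose 72 miRNAs were called, led by miR-99b-5p (log2 difference -1.80), miR-100-5p (-2.17), miR-501-3p (-2.47), miR-99a-5p (-1.70) and miR-125b-5p (-1.46), all lower at high dose. miR-100-5p was between 926 and 1441 normalized RPM and miR-501-3p between 39.1 and 51.2 in the 9 middle dose libraries numbered from 31 to 39. Of the 39 other libraries, 2 reached that range for miR-100-5p and 1 for miR-501-3p, and the part of the library set was not tested.

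Between high and low dose 6 miRNAs were called, led by miR-434-3p (4.004), miR-136-5p (3.48), miR-411-5p (2.61), miR-136-3p (2.75) and miR-127-3p (1.89), all higher at high dose.

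Between the effects at 28 and at 7 days 11 miRNAs were called, led by miR-6329 (-2.40), miR-21-3p (-1.74), miR-3473 (-1.76), miR-434-3p (2.10) and miR-466b-5p (-1.59).

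Among the 363 miRNAs with reads that were too rare to be tested, 11 had more than 3 counts in each treated library and a higher normalized level there than in every control library. Of these 11, 5 lie in the Dlk1-Dio3 cluster. All but 6 of the 81 members of that cluster with reads are among the 363. miR-337-5p had 0 counts in each control and 5, 7 and 13 at high dose. miR-376b-3p had 1, 1 and 0 counts in the controls and 7, 15 and 14 at high dose. A further 6 untested miRNAs differed in the opposite direction by the same rule.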

How the results depend on the processing

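The main comparison gave 46 DEMs. The number was 70 without a filter, 26 with 5 RPM in every library, 10 with adjusted p-values, 11 with all 12 controls pooled, 12 without the shallowest library in that pool and between 38 and 60 with a library left out (38 without high dose replicate 21 and 60 without control replicate 16). Under the other alternatives it was between 38 and 49. The share that was higher was 84.8% as reported, 67.4% with DESeq2's size factors, 66.7% with the DESeq2 Wald test, 51.4% without a filter, 65.8% with 5 RPM in 3 of the 6 libraries and 53.8% with 5 RPM in every library. Of the 46, 38 were DEMs with TMM, 38 with DESeq2's size factors, 43 with library size alone, 46 with edgeR's exact test and between 33 and 41 with a library left out. DEMs with an adjusted p-value below 0.05 numbered 10 as reported, 29 with library size alone, 33 without a filter, 5 with 5 RPM in every library, 34 with edgeR's exact test, 30 with DESeq2, 2 with either pool of controls and between 5 and 30 with a library left out (30 without control replicate 16, 5 without high dose replicate 21, 6 without high dose replicate 19). Of the 6 tested Dlk1-Dio3 members, 6 were DEMs whichever library was left out, 4 when 5 RPM were required in 3 of the 6 libraries and 1 when it was required in every library.

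Between high and middle dose 31 were called in a fit of all 48 libraries and between 45 and 76 with a library left out (45 without middle dose replicate 39), and against low dose between 2 and 41. Against 7 days 26 were called without a filter, 1 in the fit of all 48 libraries and between 2 and 18 with a library left out. These were 2 without control 28-d replicate 18, high 28-d replicate 20, control 7-d replicate 5 or 6, 3 without high 28-d replicate 19 or control 7-d replicate 4, 4 without control 28-d replicate 17 or high 28-d replicate 21, and 18 without high 7-d replicate 25 or 26. Against 14 days 9 were called without a filter, 37 by the unadjusted p-value and between 0 and 9 with a library left out (9 without control 28-d replicate 16, 1 without high 14-d replicate 7). The cause of these changes was not tested.

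The direction turned only for miRNAs that were not DEMs. miR-192-5p turned to -0.00922 with TMM, -0.0467 with DESeq2's size factors and with its Wald test, -0.128 without a filter, -0.0335 and -0.0500 with the stricter filters and -0.0133 with summed precursors, and was between -0.0246 (without control replicate 18) and 0.0652 with a library left out. miR-486 turned to -0.00351 with DESeq2's size factors and with its Wald test, -0.121 without a filter and -0.0117 and -0.0242 with the stricter filters, and was between -0.163 (without control replicate 17) and 0.223 with a library left out. It was also below 0, at -0.0255, without high dose replicate 21. miR-126a-5p turned to 0.0250 with library size alone and was between -0.0919 and 0.0135 (without control replicate 18) with a library left out, and miR-455-3p was between -0.0533 (without control replicate 16) and 0.683. Without a filter miR-122-5p turned to -0.0279 and miR-27b-3p to -0.0304. With the 12 and the 11 pooled controls, respectively, miR-486 was at -1.47 and -0.176, miR-126a-5p at 0.406 and 0.315, miR-351-5p at -0.348 and -0.0267, miR-221-3p at -0.173 and -0.199, miR-22-3p at 0.112 and 0.0385 and miR-10a-5p at 0.208 and 0.134. With the 12 alone miR-26a-5p (0.0325), miR-30a-5p (0.0200) and miR-455-3p (-0.446) also turned.

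No paired analysis was possible because no replicate numbers are shared between the groups. Rare miRNAs are limited by depth, since 3 counts were up to 0.391 RPM in these libraries. Where a group was left with 2 libraries its spread was estimated with the other group.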
